A study of Mus musculus with 3 samples.

Results

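The gene group described here holds 10 mouse genes of pigment cells, *Mitf*, *Kit*, *Kitl*, *Tyr*, *Tyrp1*, *Dct*, *Pmel*, *Mlana*, *Slc45a2* and *Oca2*, out of 55401 genes in the count tables. They were chosen by their gene names, as melanogenic genes whose counts differ between the libraries, so their differences between libraries are a description and carry no test. All 10 were found in the files, and 9 averaged at least 10 counts per library, the minimum used for every count of genes below. The study set maxillary processes that overexpress *Dlx2* against wild type. The 3 libraries used here form 1 group, OE replicates 1, 2 and 3, each from maxillary process tissue of E10.5 embryos of the genotype Wnt1cre; Rosa26Dlx2/-. In these embryos a Cre recombinase driven by *Wnt1* opens a stop cassette at *Rosa26*, so that flagged *Dlx2* is made from the CAG promoter in neural crest cells and their descendants. All 3 libraries carry both alleles. No wild-type library was used, so none of the values below measures an effect of *Dlx2*. The protocols speak of independent RNA samples but do not say how many embryos went into each. The values for each library are therefore given side by side.

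Melanin is made in melanosomes by tyrosinase (*Tyr*), the rate-limiting enzyme, and its relatives *Tyrp1* and *Dct*. *Pmel* encodes the protein that forms the fibrils on which melanin is laid down, *Oca2* and *Slc45a2* encode melanosomal transport proteins, and *Mlana* encodes another melanosome protein. *Mitf*, a basic helix-loop-helix leucine zipper factor, activates these genes by binding E-boxes, among them the M-box of tyrosinase family promoters. *Kit* is a receptor tyrosine kinase and *Kitl* its ligand, and melanoblasts need both. A mouse embryo makes pigment in a pair of lineages: the retinal pigment epithelium (RPE), which comes from the optic neuroepithelium, and the melanocytes, which come from neural crest melanoblasts. Both use *Mitf* and the enzymes. *Sox10* and *Pax3* act upstream of *Mitf* in melanoblasts, and *Otx2* acts with it in the RPE.

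The promoters are shown because several of the members that are high in the same library share a motif. RefSeq (GRCm38.p6) gave start sites for 7 of the 10 genes, and *Pmel*, *Mlana* and *Slc45a2* had no entry in the table used. Each window held 250 bases before and 50 after the start, and motifs were searched on both strands. The M-box core TCATGTG was found in windows of *Tyr*, *Tyrp1* and *Dct*, 3 of the 7 genes, which had 10 windows in all. Of all 32851 windows, 3.77% held it. The M-box is a known element of tyrosinase family promoters, so nothing is read from this difference. The E-box CATGTG, which lies inside the M-box core, was found in the same genes and in *Oca2*, against 14.2% of all windows. No window of a member held CACGTG, which 7.15% of all windows held. In the following lines the motif stands in capitals, read 5′ to 3′ on the strand of the gene. The *Tyr* site began 22 bases before the start, the *Tyrp1* site 47 bases, and the *Dct* sites 151 and 232 bases, the latter on the other strand. The *Oca2* E-box, also on the other strand, began 186 bases before the start. The printed *Tyrp1* stretch lies in an exon of GENCODE M21, where an annotated start is further upstream, and the other stretches printed below overlap no GENCODE exon.
Tyr, chr7:87493517-87493545, minus strand: gaaaaagttagTCATGTGctttgcagaag
Tyrp1, chr4:80834155-80834183, plus strand: tggggagggagTCATGTGctgcctagtag
Dct, chr14:118052380-118052408, minus strand: tgcacttagggTCATGTGctaacaaagag
Dct, chr14:118052461-118052489, minus strand: cttggctgggaCACATGAgcccaataaag
Oca2, chr7:56239562-56239590, plus strand: tgagcttgctaCACATGgctggaattttc

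The longer upstream sequence is shown for *Tyr* and *Dct*, which stood far apart in level and share the motif. The letters TAATCC, the core read by OTX factors, were found in windows of *Dct*, *Tyrp1* and *Mitf*, against 7.06% of all windows. In the sequences below, M-box cores and TAATCC are in capitals. They show that *Tyr* holds a single M-box core close to its start, whereas *Dct* holds a pair of them with TAATCC downstream of both. A match of letters is a description and does not show that a factor binds.
Tyr, chr7:87493513-87493762, minus strand: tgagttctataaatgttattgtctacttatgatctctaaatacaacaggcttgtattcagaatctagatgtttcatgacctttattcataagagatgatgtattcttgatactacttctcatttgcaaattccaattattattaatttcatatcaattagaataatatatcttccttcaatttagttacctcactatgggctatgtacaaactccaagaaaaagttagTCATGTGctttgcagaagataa
Dct, chr14:118052247-118052496, minus strand: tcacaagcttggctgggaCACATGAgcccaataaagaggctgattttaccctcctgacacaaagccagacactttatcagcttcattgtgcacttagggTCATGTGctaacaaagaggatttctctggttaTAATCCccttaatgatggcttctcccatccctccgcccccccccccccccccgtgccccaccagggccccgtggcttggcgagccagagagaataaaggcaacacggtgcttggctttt

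*Mitf* has several alternative promoters, and the most downstream one is used by melanocytes. RefSeq lists 3 start sites for it. The sequence upstream of the most downstream one holds the cyclic AMP response element TGACGTCA, 153 bases before the start, which 1.79% of all windows hold. A count per gene does not separate the transcripts of these promoters.
Mitf, chr6:97991533-97991782, plus strand: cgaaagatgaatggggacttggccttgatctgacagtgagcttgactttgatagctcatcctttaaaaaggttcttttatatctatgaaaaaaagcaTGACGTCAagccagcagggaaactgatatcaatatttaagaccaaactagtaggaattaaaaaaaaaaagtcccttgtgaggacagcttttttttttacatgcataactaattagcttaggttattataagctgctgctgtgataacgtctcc

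The libraries held 35351031 to 40057435 counts on genes. Values are counts per 1000000 counts on genes after TMM scaling (CPM), which are not divided by gene length, and the limit taken for a gene at 0 counts was 3 counts, or 0.0777 to 0.0843 CPM. The upper end of the exact interval at 0 counts is somewhat higher, at 0.0956 CPM in replicate 1. Intervals are 95% exact intervals and, like these limits, cover counting error only. *Dlx2* itself was at 235, 201 and 183 CPM in replicates 1, 2 and 3, a sum of transgene and endogenous transcripts. The mesenchymal factors *Prrx1* (629, 582 and 419 CPM), *Twist1* (317, 342 and 464) and *Barx1* (332, 409 and 928) were present in every library of this labelled tissue. *Alx1* was at 21.4, 57.8 and 47.8 CPM and *Dlx1* at 77.4, 50.3 and 59.0. None of the 10 mesenchyme markers differed 4-fold between any pair of libraries. Of the 17115 genes that reached the count minimum, 1108 did, so little is read from this. Replicate 1 stood apart from the others in sex, with *Xist* at 671 CPM and no count on 4 Y-linked genes, whereas replicates 2 and 3 had *Xist* under 1 CPM. Replicate 3 stood apart in gene length: genes with up to 2000 exonic bases had a median log2 ratio of 0.73 over replicate 1, and genes over 8000 bases had -0.65.

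*Pmel* and the enzymes were close to the detection limit in replicate 1, low in replicate 2 and clearly present in replicate 3. The 6 melanogenic genes *Pmel*, *Dct*, *Tyrp1*, *Tyr*, *Oca2* and *Slc45a2* summed to 23 counts in replicate 1, 304 in replicate 2 and 3546 in replicate 3. As CPM these sums were 0.596 (interval 0.378 to 0.894), 8.54 (7.61 to 9.56) and 94.1 (91.1 to 97.3). The sum was 14.3 times higher in replicate 2 than in replicate 1 (9.38 to 23.0), and a further 11.02 times higher in replicate 3 than in replicate 2 (9.80 to 12.4). Each of the 6 genes was higher at both steps. In bulk tissue, fewer cells of a type and less RNA per cell cannot be told apart.

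*Pmel* (ENSMUSG00000025359, chromosome 10, 128704195 to 128720238, plus strand, GRCm38) had the highest level of the 6 per exonic length in every library. It had 14, 213 and 2705 counts in replicates 1, 2 and 3, or 0.363, 5.98 and 71.8 CPM. The level was 16.5 times higher in replicate 2 than in replicate 1 (interval 9.62 to 30.7) and 11.999 times higher in replicate 3 than in replicate 2 (10.4 to 13.9). The mean of 26.1 ± 39.7 CPM (SD, n = 3) was smaller than its SD, so it describes no single library. Of its 2292 exonic bases, 139 are shared with exons of *Dgka* and *Cdk2*.

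*Dct*, dopachrome tautomerase (ENSMUSG00000022129, chromosome 14, 118012790 to 118052244, minus strand), had 8, 55 and 495 counts, or 0.207, 1.55 and 13.1 CPM. It was 7.45 times higher in replicate 2 than in replicate 1 (3.53 to 18.1) and 8.50 times higher in replicate 3 than in replicate 2 (6.43 to 11.5). Among the melanogenic genes, *Dct* and *Pmel* had more than 3 counts in every library and the other 4 did not.

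*Tyr*, the gene of the rate-limiting enzyme (ENSMUSG00000004651, chromosome 7, 87424771 to 87493512, minus strand), had 0, 4 and 127 counts, or 0, 0.112 and 3.37 CPM. Replicate 3 was 29.998 times higher than replicate 2 (11.4 to 112), and at least 43.4-fold higher than replicate 1, taking 3 counts as the limit there and leaving aside the counting error of replicate 3 (interval 2.81 to 4.01 CPM). *Tyrp1* (ENSMUSG00000005994, chromosome 4, 80834123 to 80851719, plus strand) had 0, 13 and 88 counts, or 0, 0.365 and 2.34 CPM. It was 6.40 times higher in replicate 3 than in replicate 2 (3.55 to 12.5). The intervals of these ratios for *Tyr* and *Tyrp1* overlap between 11.4 and 12.5.

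*Oca2* (ENSMUSG00000030450, chromosome 7, 56239760 to 56536518, plus strand) had 0, 9 and 81 counts, or 0, 0.253 and 2.15 CPM, and replicate 3 (interval 1.71 to 2.67 CPM) was at least 27.7-fold higher than replicate 1 on the same terms. *Slc45a2* (ENSMUSG00000022243, chromosome 15, 11000721 to 11029233, plus strand) had 1, 10 and 50 counts, or 0.0259, 0.281 and 1.33 CPM. Replicate 3 was 4.72 times higher than replicate 2 (2.37 to 10.4). Its ratio to replicate 1 rests on 1 count there, and was 51.2 with an interval of 8.78 to 2063. *Mlana* (ENSMUSG00000024806, chromosome 19, 29697824 to 29708634, plus strand) had 3, 3 and 2 counts and did not follow the other melanosome genes. Its upper limits were 0.227, 0.246 and 0.192 CPM. Per exonic length it was at 0.126 TPM (counts per base of exonic length scaled to a sum of 1000000) in replicate 3, against 1.12 for *Slc45a2*, the lowest of the 6 there.

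**Figure D1:**
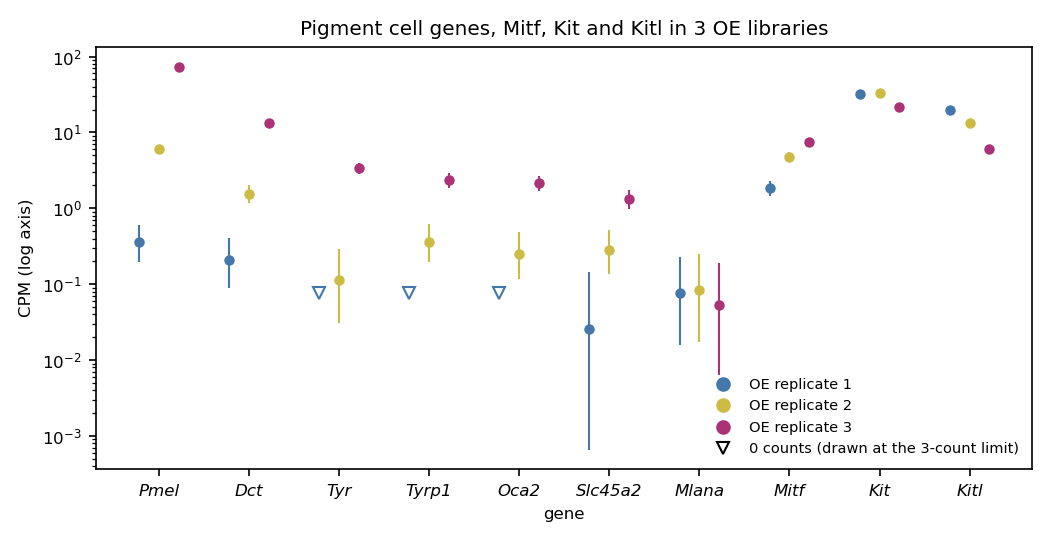
Level of the 10 genes in CPM (log axis) in OE replicates 1, 2 and 3, with 95% exact Poisson intervals as bars and open triangles for 0 counts, drawn at the limit of 3 counts. *Pmel* goes from 0.363 to 71.8 CPM and *Mitf* from 1.84 to 7.51, *Mlana* stays at 2 or 3 counts, and *Kit* and *Kitl* are lowest in replicate 3.

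Of the 17115 genes that averaged at least 10 counts, 0.754% were at least 4-fold higher in replicate 2 than in replicate 1, 2.80% were so in replicate 3 against replicate 1 and 1.17% in replicate 3 against replicate 2. Among the members 5, 6 and 6 of 9 were that much higher in these pairs, with a prior count of 2 added to each library. The rule chose them for differing, so nothing is read from these counts. None of the members was 4-fold lower in any pair, while 0.900%, 2.66% and 1.15% of all genes were. The 5 were the melanogenic genes without *Tyr*, whose 4 counts in replicate 2 are few, and the 6 included it.

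The makeup of the melanogenic counts within a library does not depend on the scaling between libraries. These are shares of counts, not levels per length. *Pmel* made up 60.9% of the counts on the 6 genes in replicate 1 (interval 38.5 to 80.3), 70.1% in replicate 2 (64.6 to 75.2) and 76.3% in replicate 3 (74.8 to 77.7). *Dct* made up 34.8% (16.4 to 57.3), 18.1% (13.9 to 22.9) and 14.0% (12.8 to 15.1). *Tyr* made up 0% (0 to 14.8), 1.32% (0.360 to 3.33) and 3.58% (2.99 to 4.25). The intervals of replicates 2 and 3 overlap for *Tyr*, *Tyrp1*, *Oca2*, *Slc45a2* and *Dct*, and narrowly for *Pmel*. By count *Pmel* came first and *Dct* second in each library, but in replicate 1, with 14 and 8 counts, their intervals overlap.

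**Figure D2:**
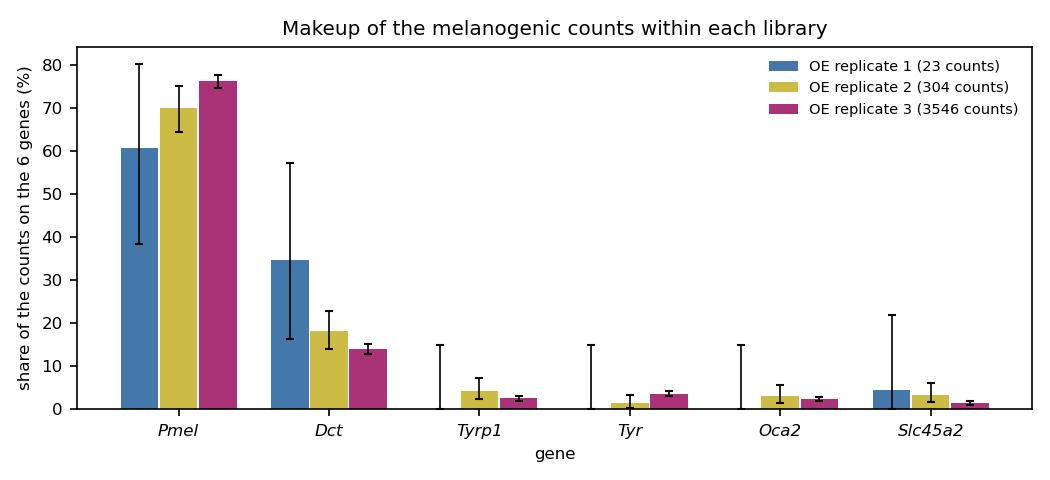
Share of each gene (%) in the counts on *Pmel*, *Dct*, *Tyrp1*, *Tyr*, *Oca2* and *Slc45a2* within OE replicates 1, 2 and 3, with 95% Clopper-Pearson intervals. *Pmel* holds 60.9%, 70.1% and 76.3% and *Dct* 34.8%, 18.1% and 14.0%, and the bars of replicate 1 are wide because they rest on 23 counts.

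*Mitf* (ENSMUSG00000035158, chromosome 6, 97807052 to 98021349, plus strand) was detected in every library, at 71, 170 and 283 counts. Its levels of 1.84, 4.78 and 7.51 CPM followed the same order as those of the melanogenic genes over a smaller range. Replicate 2 was 2.60 times higher than replicate 1 (1.96 to 3.48), replicate 3 was 1.57 times higher than replicate 2 (1.30 to 1.91) and 4.08 times higher than replicate 1 (3.14 to 5.37). With the prior count its log2 difference between replicates 3 and 1 was 2.00 after rounding, just under the 4-fold limit. Within a library, the ratio of *Pmel* to *Mitf* counts went from 0.197 in replicate 1 to 1.25 in replicate 2 and 9.56 in replicate 3. Per exonic length, *Mitf* was above *Pmel* in replicate 1, at 1.11 against 0.592 TPM, and below it in replicate 3, at 3.04 against 78.6 TPM.

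Among the relatives of *Mitf*, *Tfe3* was level at 41.6, 39.8 and 41.5 CPM, *Tfeb* was at 1.35, 2.14 and 4.51, and *Tfec*, which is expressed in the RPE, was at 1.53, 1.69 and 2.60. These 3 and 14 other regulators of pigment genes made up a list of 17, of which 16 reached the count minimum. In replicate 3 against replicate 1, 2 of the 16 were at least 4-fold higher (*Pax6* and *Asip*) and 2 lower (*Sox10* and *Ednrb*). Over all genes these shares were 2.80% and 2.66%. The median log2 ratio of the 16 was 0.53 against -0.03 over all genes. Subtracting a smooth curve fitted to length and GC content took *Asip* from 2.52 to 1.63 and *Ednrb* from -2.29 to -1.90, both under the 4-fold limit. *Asip*, the agouti signalling protein that antagonises the melanocortin receptor (listed as *a* in the annotation), was at 0.233, 0.393 and 1.59 CPM, and 147 of its bases are shared with *Raly*. The receptor itself, *Mc1r*, had 1, 0 and 2 counts. The regulators with the highest CPM, *Usf1* (119, 141 and 262 CPM), *Sox9* (114, 93.9 and 80.5) and *Creb1* (111, 87.5 and 53.6), are broadly expressed factors.

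Genes that mark the RPE and its tissue of origin were set beside genes that mark melanoblasts and the glial cells of the neural crest. None of the 10 members is in these lists, and some other genes stand in more than 1 list. Of 9 genes of the early RPE, 1 (*Trpm1*) was at least 4-fold higher in replicate 2 than in replicate 1. In replicate 3 against replicate 2 there were 2 (*Tspan10* and *Gpr143*). Over all genes these shares were 0.754% and 1.17%. Both *Tspan10* and *Gpr143* reached the count minimum only through replicate 3, so they could hardly have been called lower there. All 3 genes also stand in the list of melanosome assembly and transport, and the other early RPE genes differed 4-fold in no pair. *Trpm1*, a channel gene that MITF activates in pigment cells, was at 4.33, 25.6 and 64.5 CPM, higher at both steps. *Tspan10*, a tetraspanin gene, had 1, 7 and 187 counts, or 4.96 CPM in replicate 3. *Gpr143*, the ocular albinism receptor of melanosomes, had 0, 2 and 41 counts. *Otx2* (8.60, 11.9 and 13.2 CPM) and *Otx1* (13.3, 21.6 and 18.1) were present in every library and lowest in replicate 1. The median log2 ratio of the list was 0.70 in replicate 2 over replicate 1 and 0.61 in replicate 3 over replicate 2, against 0.01 and -0.02 over all genes.

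Of 12 genes of the visual cycle and the mature RPE, 4 had at most 4 counts in any library. *Rpe65*, the retinoid isomerase, had no count in any library, *Lrat* had 1, 0 and 0 counts, *Rgr* 0, 0 and 1, and *Ttr* 0, 0 and 4. *Rlbp1*, which encodes a retinaldehyde-binding protein, was at 0.285, 1.07 and 4.75 CPM, in the order of the melanogenic genes. *Stra6*, the receptor for retinol-binding protein, was at 21.8, 50.1 and 72.0 CPM. *Rdh5* was at 1.45, 1.52 and 3.32 CPM and shares 25.6% of its exonic bases with *Bloc1s1*. *Serpinf1* (135, 155 and 256 CPM) was also ordered as the melanogenic genes were, and *Cdh3* (61.2, 48.9 and 39.1) in the opposite order. Of the 8 genes of this list that reached the count minimum, 1 (*Rlbp1*) was at least 4-fold higher in replicate 3 than in replicate 1, and the median log2 ratio was 0.74.

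Genes of the optic vesicle and neural retina were much lower in replicate 1, but were at like levels in replicates 2 and 3. Of the 12 genes, 9 were at least 4-fold higher in replicate 2 than in replicate 1, against 0.754% of all genes. Their list had a median log2 ratio of 2.79 in that pair. In replicate 3 against replicate 2 the median was -0.13 and 1 gene was 4-fold higher, against 1.17% of all genes. This was *Hes5* (4, 2 and 24 counts), which reached the count minimum only through replicate 3. *Rax*, the homeobox gene of the eye field, was at 0.233, 12.6 and 21.5 CPM. *Pax2*, of the optic stalk, was at 0.492, 13.5 and 15.4 CPM. *Lhx2* was at 7.98, 41.9 and 33.7 CPM and *Pax6* at 4.85, 30.7 and 24.9. The broadly expressed *Sfrp2* (49.1, 143 and 141 CPM) followed, whereas *Sox2* (28.0, 25.8 and 16.6) did not. The summed CPM of the list was 99.96, 353 and 332, so its ratio of replicate 3 to replicate 2 was 0.940 (0.917 to 0.964), against 11.02 for the 6 melanogenic genes. The counts of *Pmel* per count of *Rax* were 1.56, 0.475 and 3.34.

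Most genes of the neural crest list were highest in replicate 1. *Sox10*, which melanoblasts and glial precursors share, was at 37.2, 5.65 and 7.94 CPM, highest in the library with the fewest melanogenic counts. *Foxd3* (6.81, 0.899 and 2.34 CPM) and *Fabp7* (5.96, 0.618 and 2.15), a crest specifier and a glial lipid-binding protein, were also highest in replicate 1. *Ednrb*, the endothelin receptor of melanoblasts, was at 10.47, 2.73 and 2.10 CPM. *Pax3*, on the other hand, was at 3.42, 6.12 and 7.30 CPM. The widely expressed *Sox5* (43.0, 32.2 and 21.4) and *Snai2* (32.2, 33.2 and 25.6) differed less. Of the 11 genes that reached the count minimum, 3 (*Sox10*, *Foxd3* and *Fabp7*) were at least 4-fold lower in replicate 2 than in replicate 1. In replicate 3 against replicate 1, 4 (*Sox10*, *Erbb3*, *Ednrb* and *Cdh19*) were that much lower. Over all genes these shares were 0.900% and 2.66%. With a curve on length and GC content subtracted, *Ednrb* was at a log2 ratio of -1.90 in replicate 3 over replicate 1, under the limit. None of the 11 differed 4-fold between replicates 2 and 3, where 1.17% of all genes were higher and 1.15% lower. From replicate 2 to replicate 3 the genes of this list went both ways: the ratio was 3.48 for *Fabp7* (2.15 to 5.85), 2.60 for *Foxd3* (1.72 to 4.03) and 1.41 for *Sox10* (1.17 to 1.69), but 0.630 for *Erbb3* (0.530 to 0.748). The summed CPM of the 12 genes was 189, 100.4 and 83.1, of which *Sox5* and *Snai2* made up the larger part in replicates 2 and 3, and the counts of *Pmel* per count of *Sox10* were 0.00976, 1.06 and 9.05.

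Neuronal genes were also highest in replicate 1. The 9 genes summed to 273, 24.3 and 35.9 CPM, with *Tubb3* at 115, 7.64 and 16.9 CPM, *Isl1* at 37.0, 11.2 and 5.31, and *Neurod1* at 20.6, 0.197 and 0.611. *Stmn2* was at 30.7, 1.66 and 5.42 CPM, *Dcx* at 15.3, 0.393 and 0.584, and *Neurog1* at 7.38, 0.140 and 1.11. All 9 were at least 4-fold lower in replicate 3 than in replicate 1, and 8 were so in replicate 2. The optic vesicle list, the neuron list and sex each set replicate 1 apart from replicates 2 and 3. The part of these differences in the melanogenic counts was not tested, nor was the tissue that the transcripts of these lists came from. Between replicates 2 and 3, where the melanogenic sum differed 11.02 times, the early RPE list summed to 75.5 and 119 CPM and the optic vesicle list to 353 and 332 CPM. *Trpm1* alone held 25.6 and 64.5 CPM of the early RPE sums, and so most of their difference. Within the early RPE list *Tspan10* was 25.2 times (12.01 to 63.6) and *Gpr143* 19.4 times higher (5.03 to 165) in replicate 3 than in replicate 2. In the same pair *Trpm1* was 2.52 times higher (2.34 to 2.73), whereas *Otx1* was at 0.835 times (0.752 to 0.927) and *Wnt2b* at 0.434 times (0.317 to 0.590).

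**Figure D3:**
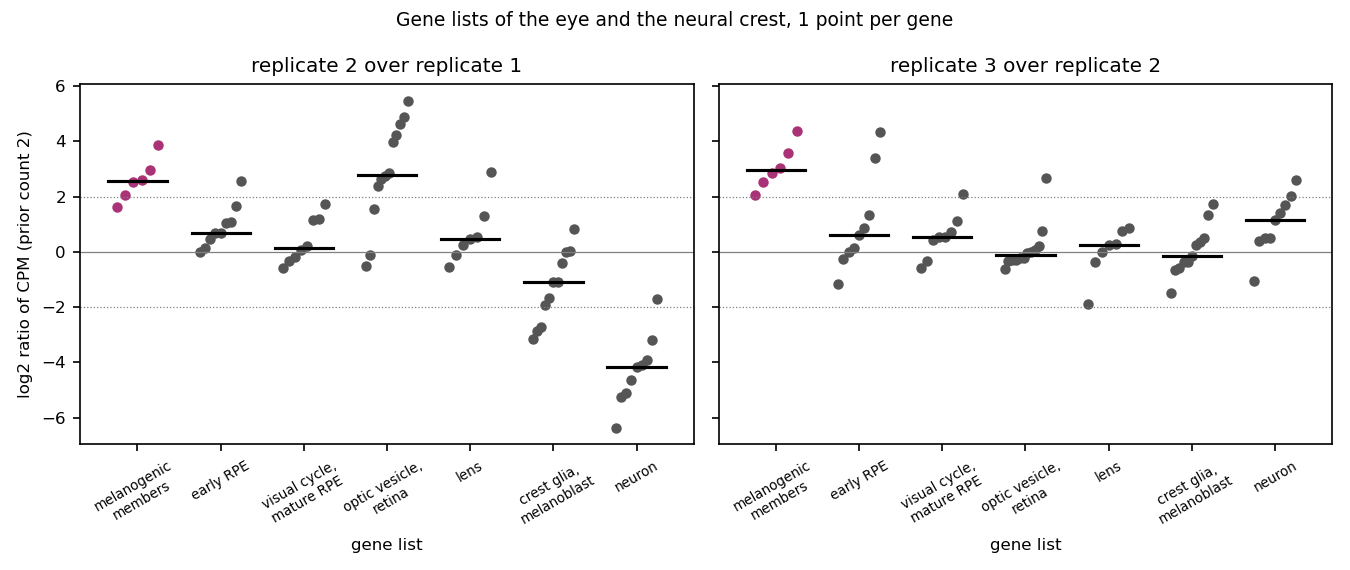
Log2 ratio of CPM (prior count of 2) of single genes in replicate 2 over replicate 1 (left) and replicate 3 over replicate 2 (right), by gene list, for genes that reached the count minimum, with bars at the median and dotted lines at a 4-fold difference. The melanogenic members lie above 0 in both panels, the optic vesicle genes have a median of 2.79 on the left and -0.13 on the right, and the neural crest genes have a median of -1.10 on the left and -0.14 on the right.

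The genes closest to *Pmel* in pattern were found by the Euclidean distance over the 3 libraries of log2 CPM centred on each gene's mean, among 13258 genes that averaged at least 50 counts. The closest was *Dct*, at a distance of 1.29, followed by *Fezf1* (1.57), *Tspan10* (1.58), *Rmst* (1.69), *Vax1* (1.75), *Slc38a8* (1.96), *Fezf2* (1.96), *Rax* (1.99), *C130093G08Rik* (2.17) and *Zic4* (2.20). With only 3 libraries, such a ranking describes order and range alone. In *Vax1*, a ventral eye and forebrain homeobox gene, the levels were 0.155, 7.36 and 15.9 CPM, and in *Slc38a8*, an amino acid transporter gene, 0.777, 12.6 and 27.9. Both differed most between replicates 1 and 2, whereas the ratios of *Dct* and *Pmel* were alike at both steps. At a minimum of 200 counts, 3 of the 10 genes were shared with this ranking, since *Dct* and others fell below that level.

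The genes of melanosome assembly and transport, used by other cell types for lysosome-related organelles, differed in both directions. Of the 27 genes that reached the count minimum, 15 were higher and 12 lower in replicate 3 than in replicate 1, with a median log2 ratio of 0.04. In that pair 4 were at least 4-fold higher, namely *Trpm1*, *Tspan10*, *Gpnmb* and *Gpr143*, and 2 were at least 4-fold lower, namely *Atp7a* and *Mreg*, while 2.80% and 2.66% of all genes were so. As said above, *Tspan10* and *Gpr143* reached the count minimum only through replicate 3. *Gpnmb*, a glycoprotein gene related to *Pmel*, was at 0.233, 0.506 and 8.71 CPM. The adaptor subunits *Ap3d1* (155, 168 and 163 CPM) and *Ap1s1* (84.3, 99.9 and 200) and the tetraspanin *Cd63* (86.4, 85.0 and 167) had the highest CPM. *Rab38*, a small GTPase that carries cargo to melanosomes, was level at 8.45, 8.32 and 8.36 CPM.

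*Kit* and *Kitl* were present throughout and lowest in replicate 3, and the levels of *Kitl* ran in the order opposite to those of the enzymes. *Kit* (ENSMUSG00000005672, chromosome 5, 75574916 to 75656722, plus strand) had 1253, 1182 and 812 counts, or 32.5, 33.2 and 21.6 CPM, a mean of 29.1 ± 6.52 (SD, n = 3). Replicates 1 and 2 differed by less than counting error (ratio 1.02, interval 0.944 to 1.11), and replicate 3 was at 0.664 times replicate 1 (0.607 to 0.726). *Kitl* (ENSMUSG00000019966, chromosome 10, 100015630 to 100100416, plus strand) had 759, 470 and 229 counts, or 19.7, 13.2 and 6.08 CPM, a mean of 13.0 ± 6.80 (SD, n = 3). It was lower at both steps, at 0.671 (0.597 to 0.754) and 0.460 times (0.391 to 0.540). Per exonic length, the receptor was 1.10 times as abundant as the ligand in replicate 1, 1.67 times in replicate 2 and 2.35 times in replicate 3. These ratios depend on the length used: over the 3 libraries the mean was 10.53 TPM for *Kit* and 7.39 for *Kitl* on the union of exons, and 13.5 and 5.82 on the longest transcript.

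The exons of *Kit* cover 8911 bases and those of *Kitl* 5911. Genes over 8000 exonic bases were lower in replicate 3 than in replicate 1, with a median log2 ratio of -0.65. Genes of 2000 to 8000 exonic bases, the class of *Kitl*, had a median of -0.06. Once a smooth curve fitted to length and GC content had been subtracted, the log2 difference of *Kit* between replicates 3 and 1 went from -0.59 to -0.08, and that of *Kitl* from -1.69 to -1.01. The same step took *Pmel* from 7.43 to 6.996, *Dct* from 5.66 to 6.30 and *Tyr*, the longest of the 6, from 6.00 to 6.76. The gene closest to *Kit* in pattern was *Snrnp200*, at a distance of 0.00391, followed by *Gm3854*, *Kri1*, *Brms1l*, *Afdn*, *Zfp748*, *Bbs7*, *Kank2*, *Ebag9* and *Trappc11*, all within 0.0167.

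**Figure D4:**
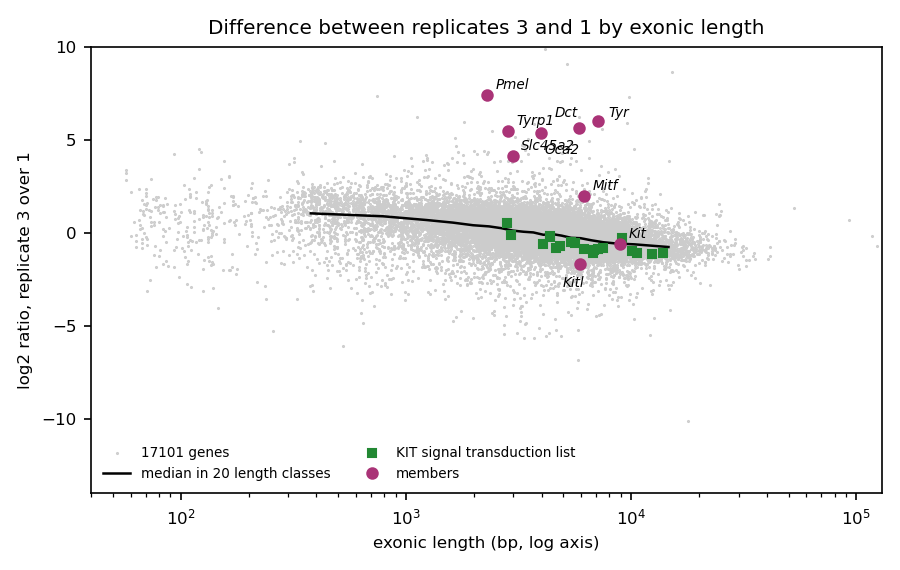
Log2 ratio of CPM in replicate 3 over replicate 1 (prior count of 2) against exonic length (bp, log axis) for 17101 genes in grey, with the median in 20 length classes as a line, the KIT signal transduction list as squares and 9 members as labelled circles. *Kit* at -0.59 lies near the line, *Kitl* at -1.69 lies below it, and the melanogenic genes lie far above it.

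The genes that act downstream of KIT were present in every library. None of 19 such genes was 4-fold different between any pair, as 1108 of the 17115 genes that reached the count minimum were. Of the 19, 18 were lower in replicate 3 than in replicate 1, with a median log2 ratio of -0.81 against -0.03 over all genes. With that curve subtracted the median was -0.43, with 3 of 19 genes higher. *Ptpn11*, the SHP2 phosphatase, was at 211, 201 and 120 CPM, the adaptor *Grb2* at 98.9, 95.2 and 91.3, and *Spred1*, an inhibitor of the RAS pathway, at 133, 102 and 63.1. *Cbl*, the ubiquitin ligase of the receptor, was at 90.1, 73.4 and 41.5 CPM and *Braf* at 43.0, 37.1 and 20.4.

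*Kit* is also expressed by mast cells and blood progenitors. The mast cell genes *Ms4a2*, *Mcpt4* and *Tpsb2* had no count in any library and *Cpa3* had 0, 3 and 3 counts. The progenitor and blood genes *Gata2* (31.0, 62.1 and 39.98 CPM), *Cd34* (39.3, 48.3 and 52.5) and *Itga2b* (7.51, 21.6 and 15.4) were detected, with the highest or middle level in replicate 2. *Gata1* (3.47, 5.70 and 2.65) and *Tal1* (10.65, 18.1 and 9.05) were highest in replicate 2 and lowest in replicate 3. Their list summed to 103, 166 and 128 CPM. *Ptprc* (2.49, 1.69 and 0.903) and *Runx1* (5.03, 4.02 and 2.18) were lowest in replicate 3, as *Kit* was. Endothelial genes summed to 292, 325 and 241 CPM, with *Kdr* at 77.6, 84.1 and 37.3, *Cdh5* at 77.7, 87.9 and 49.1, *Tie1* at 49.0, 60.5 and 62.5 and *Tek* at 21.3, 19.3 and 12.03. Epithelial genes summed to 410, 275 and 262 CPM. In that list 4 of 6 genes, *Trp63* (55.4, 29.6 and 11.4 CPM), *Cdh1* (48.1, 32.5 and 13.4), *Epcam* (66.6, 45.8 and 30.3) and *Cldn6* (70.4, 52.8 and 38.7), were ordered as *Kitl* was, whereas *Krt18* (86.7, 65.5 and 108) and *Krt8* (83.2, 49.3 and 59.2) were not. *Trp63* alone of the 6 was at least 4-fold lower in replicate 3 than in replicate 1, as 2.66% of all genes were. With the length and GC trend removed, none of the 6 differed 4-fold between any pair, and with total counts without TMM scaling 2 did. The part of these cell types in the levels of *Kit* and *Kitl* was not tested.

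Per exonic length, the order of the 10 genes differed between the libraries. In TPM, replicate 1 was led by *Kit* at 13.6 and *Kitl* at 12.4, followed by *Mitf* at 1.11, with *Pmel* at 0.592. Replicate 3 was led by *Pmel* at 78.6, followed by *Kit* at 6.07, *Dct* at 5.59, *Mitf* at 3.04, *Kitl* at 2.58 and *Tyrp1* at 2.07. *Oca2*, *Tyr* and *Slc45a2* lay close together there, at 1.36, 1.19 and 1.12 TPM. Over the 3 libraries the means were 29.2 ± 42.9 TPM for *Pmel*, 10.53 ± 3.96 for *Kit* and 7.39 ± 4.93 for *Kitl* (SD, n = 3). These spreads overlap, but they leave aside that the levels are paired within libraries. *Kit* was above *Kitl* in every library, and *Pmel* was below *Kit* in replicates 1 and 2 and above it in replicate 3.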

How the data were processed

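Libraries were made from poly-A RNA by a protocol that names no strand-marking step and read as 150 bp pairs. The authors mapped reads to mm10 with STAR 2.7.3a, and HTSeq 0.12.4 is named in the submitters' processing notes. The deposited values are raw counts per gene, not normalized. The strand setting and annotation release are not given in the sources used here. Rows naming no gene held 14.2% to 16.4% of counted reads and were left out.

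Identifiers were matched to GENCODE M21 (GRCm38) without versions, 55141 of 55401. TMM factors came from edgeR 4.0.16 (R 4.3.3), alternative size factors from DESeq2 1.42.0 and the length and GC trend from mgcv 1.9.3. Ratios with intervals are of CPM without a prior count, and log2 ratios and 4-fold calls took a prior count of 2, for genes averaging at least 10 counts. Steps were tested on simulated data. With 1 group no test was made. Every pair of libraries differed by more than sampling noise. Members and lists were chosen with earlier results of these data known. Named are the members, and per list the 3 genes with the highest mean CPM, the 3 with the largest range and those at 0, plus single genes picked after their values were seen (among them *Rab38*, *Mc1r*, *Ednrb*, *Pax3*, *Tfe3*, *Tfeb*, *Tfec*, *Lrat*, *Rgr*, *Ttr*, *Cpa3*, *Gata1*, *Tal1*, *Cryaa*, *Erbb3*, *Cdh19*, *Atp7a* and *Mreg*) and the 10 genes closest to *Pmel* and to *Kit*. Of the genes picked by this rule, 1 is not reported here.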

Additional observations from a re-analysis of the deposited data

How the results depend on the processing

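Among 314 values from alternative settings for 52 results, 265 moved by less than the spread between libraries or, for counts, by no more than 1.5 times. For the melanogenic genes that spread is wider than the mean, so it hides large moves: without replicate 3 the mean CPM went from 26.1 to 3.17 for *Pmel*, from 4.96 to 0.876 for *Dct*, from 1.16 to 0.0562 for *Tyr*, from 0.900 to 0.183 for *Tyrp1*, from 0.801 to 0.126 for *Oca2* and from 0.545 to 0.153 for *Slc45a2*. Without replicate 1 the mean of *Pmel* was 38.9. The 6 members that differed at least 4-fold between a pair of libraries became 7, with *Mitf*, under DESeq2 size factors, a prior count of 0.5 or removal of the length and GC trend. Leaving out each replicate in turn gave 5 to 6. The median log2 ratio of the members, 5.36 in replicate 3 over replicate 1, ran from 2.07 to 5.36 in the pairs that remain, with 2.51 without replicate 1 and 2.07 without replicate 3. Of all genes, 1108 differed at least 4-fold in some pair, against 1978 with no filter on low counts, since more genes are tested, and 5720 at a fold of 2. Without 1 replicate these were 283 to 935, with 283 without replicate 3 and 397 without replicate 1. Without replicate 1 the median of the optic vesicle list turned from 2.65 to -0.13 and that of the neuron list from -2.77 to 1.14, because the pair that remains is replicates 3 and 2. The ranges over the replicates left out were -0.13 to 2.79 and -4.17 to 1.14. No paired analysis was possible because there is 1 group. Depth limits *Tyr*, *Tyrp1*, *Oca2*, *Slc45a2* and *Mlana* in replicate 1, which had at most 3 counts each.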

Other observations

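Among the melanosome genes, *Atp7a* and *Mreg* ran against the enzymes and were picked after their values were seen. *Atp7a*, the copper transporter that loads tyrosinase, had 516, 372 and 31 counts, or 13.4, 10.45 and 0.823 CPM, and replicate 1 was 16.2 times higher than replicate 3 (interval 11.3 to 24.2). Removing the trend on length and GC content left a log2 difference of -3.26 between replicates 3 and 1. *Mreg*, melanoregulin, was at 18.5, 5.03 and 2.81 CPM, or 6.57 times higher in replicate 1 than in replicate 3 (5.35 to 8.13).

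Lens genes were low in all libraries. *Cryaa* had 0, 0 and 4 counts, and *Pitx3*, a lens transcription factor, had 1, 19 and 38. *Prox1* (3.01, 2.78 and 0.717 CPM) was lowest in replicate 3, *Crybb3* was at 0.466, 1.24 and 1.49, *Cryab* at 3.76, 2.56 and 4.35, and *Maf* at 7.49, 8.88 and 8.92. The list summed to 16.4, 18.1 and 18.4 CPM.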
